A study of Homo sapiens with 12 samples.

Results

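A549 cells that had lost YTHDF1 were compared directly with A549 cells in which ARID1A had been silenced, so that the RNA profiles of the single perturbations could be read against each other. The comparison took every library that the genotype labels place in either group, 3 of YTHDF1 KO and 3 of siARID1A, which is 6 of the 12 libraries of the series. A549 is an established human lung adenocarcinoma cell line. The YTHDF1 KO cells carry "YTHDF1 knockout" in the genotype field of the labels, although the sample titles write "Kockdown" for the same libraries, and no label says whether they were 1 clone or a pool. The siARID1A cells received small interfering RNA against ARID1A on an otherwise unmodified background. No label gives a control small interfering RNA, a time after transfection or a treatment, so having been transfected and having lost ARID1A cannot be told apart here. Unmodified cells (WT, 3 libraries) and cells with both changes (3 libraries, called the combined group) were not in the test and are given as reference levels only. Libraries of a group are numbered as biological replicates, with nothing said of separate cultures, so the p-values measure the spread between these libraries.

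YTHDF1 is a cytoplasmic reader protein that binds N6-methyladenosine, a methyl mark on messenger RNA, and is known for promoting translation or decay of marked transcripts. ARID1A is the largest subunit of the BAF form of the SWI/SNF chromatin remodeller, which moves nucleosomes at enhancers and promoters, and it is often lost in tumours. RNA–DNA hybrids (R-loops), unrepaired DNA and double-stranded RNA can each engage innate sensors that end in interferon production, and interferon in turn switches on a large set of antiviral genes. The series title links YTHDF1 to R-loops and to restraint of innate and adaptive immunity, so genes of those pathways were given a large share of the lists described here.

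The 6 libraries held between 32380546 and 41186530 counts, and mitochondrial transcripts took between 6.81% and 7.75% of them. The first principal component held 75.3% of the variance and separated the groups, while siARID1A replicate 2 lay apart from the other siARID1A libraries on the second, which held 6.85%. Of 11 markers of A549 and lung epithelium, 8 were tested and all 8 were lower in YTHDF1 KO. Their summed level moved with the group, at 10369 to 10903 CPM (counts scaled to a common library size) in YTHDF1 KO and 17443 to 21305 CPM in siARID1A, and its part in other results was not tested. The alveolar type II genes SFTPB and SFTPC and the lung regulator NKX2-1 stood at or near 0 in both groups. ABCA3, a further lung gene of that list, was expressed, at 62.4 to 66.1 CPM in YTHDF1 KO and 75.5 to 79.6 CPM in siARID1A. Of 17 markers of blood, stromal and other cells, the summed level was 56.7 to 61.1 CPM in YTHDF1 KO and 49.2 to 67.8 CPM in siARID1A, with CD3E and CDH5 at 0 in all 6 libraries. Whole-number counts of 1 to 20 were even in 68.2% to 70.8% of cases in the 6 libraries, and if the mates of a read pair were counted separately, which was not tested, the counting intervals given below are too narrow. Among the reference groups, WT replicate 2 stood apart, with 4.85% mitochondrial counts where the other WT libraries had 7.90% and 8.23%, so counts that rest on the WT mean are also given without it where they differ.

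Each targeted transcript was low in its own group. On chromosome 20, from 63195429 to 63216234 of GRCh38, lies YTHDF1 (ENSG00000149658), which stood at 26.8, 25.2 and 22.7 CPM in the YTHDF1 KO libraries and 99.02, 102 and 93.8 CPM in the siARID1A libraries. All 3 YTHDF1 KO libraries lay far below all 3 siARID1A libraries, with a log2 fold change of -1.98, SE 0.0796, adjusted p = 3.31e-18. The YTHDF1 transcript was reduced and still present, and WT cells held 88.2 ± 2.57 CPM. On chromosome 1, from 26693236 to 26782110, lies ARID1A (ENSG00000117713), which stood at 175, 153 and 154 CPM in the YTHDF1 KO libraries and 45.2, 41.1 and 42.02 CPM in the siARID1A libraries. Here the siARID1A libraries were the low ones and the groups did not overlap (log2 fold change 1.91, SE 0.0754, adjusted p = 1.92e-18). The YTHDF1 KO level was close to the 164 ± 14.1 CPM of WT. Log2 fold changes are YTHDF1 KO minus siARID1A throughout, so a positive value means more RNA in the YTHDF1 KO cells. Adjusted p-values are those of edgeR's quasi-likelihood test with Benjamini-Hochberg adjustment over all genes tested, a gene is called when its adjusted p is under 0.05, and values with ± are mean and SD (n = 3). Where a bracket gives a pair of levels, they are mean CPM in YTHDF1 KO against mean CPM in siARID1A, followed by the log2 fold change. Levels are not corrected for gene length and are compared between groups, not between genes.

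The cells differed across a large part of the transcriptome. Of 17246 genes tested, 4425 (25.7%) were called higher in YTHDF1 KO and 4540 (26.3%) were called lower, together 52%, and the median log2 fold change over all genes was 0.0038. Every count of list members given below is to be read against these shares of 25.7% higher and 26.3% lower. Larger differences were mostly in 1 direction: 723 genes (4.19%) were higher by more than 1 on the log2 scale and 1630 (9.45%) were lower by more than 1. Beyond 2 on that scale the counts were 158 higher and 559 lower. The libraries of the groups did not overlap for 10139 genes (58.8%), 5041 (29.2%) with YTHDF1 KO above and 5098 (29.6%) with YTHDF1 KO below. WT levels show which group lay farther from unmodified cells. Among the 723 genes higher by more than 1, WT was nearer to siARID1A for 432 and nearer to YTHDF1 KO for 291. Among the 1630 lower genes the split was 770 nearer siARID1A and 860 nearer YTHDF1 KO. Without WT replicate 2 the splits were 446 and 277 for higher genes and 753 and 877 for lower genes, so neither group was the nearer one throughout. The groups did not always lie on either side of unmodified cells. Where WT lay outside both, the group on its side was the nearer one by definition, so nearer does not mean at the WT level. WT was above both groups for 98 of the higher genes and below both for 200. For the lower genes these numbers were 282 and 349.

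**Figure D1:**
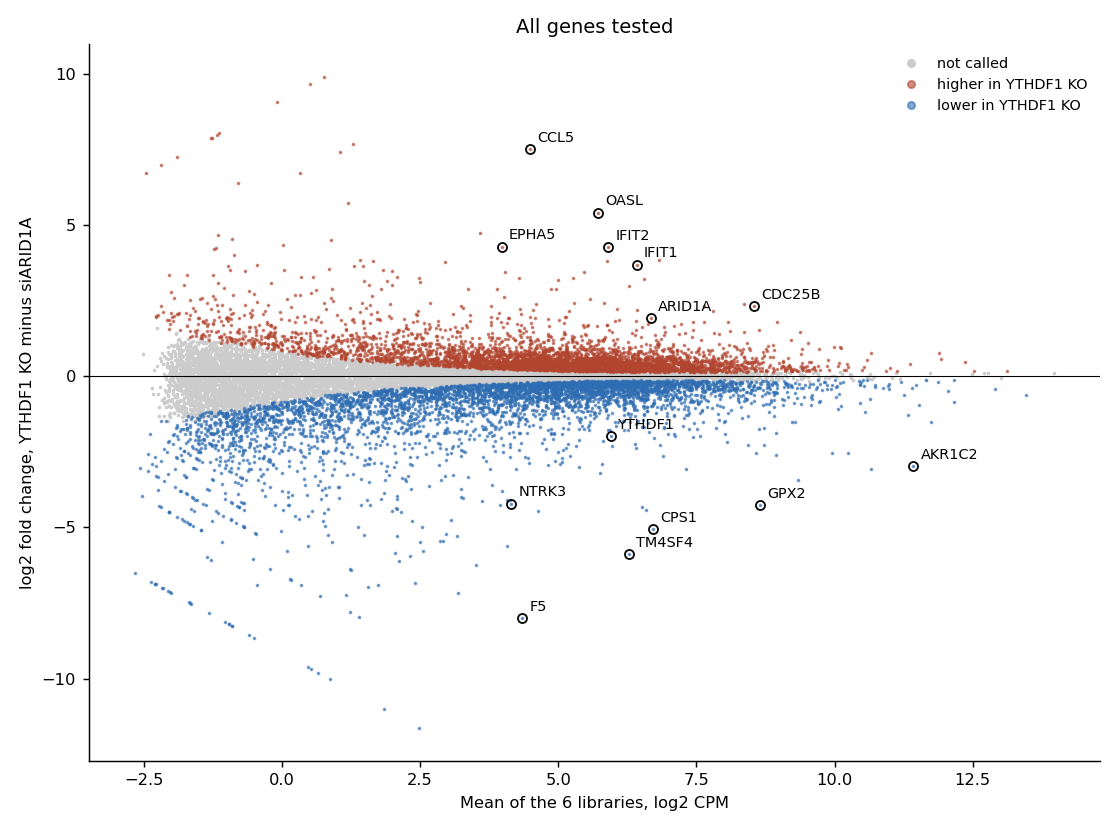
Each point is 1 of the 17246 genes tested, with the mean of the 6 libraries in log2 CPM on the horizontal axis and the log2 fold change (YTHDF1 KO minus siARID1A) on the vertical axis, and 14 of the named genes are circled. Interferon-response genes such as CCL5 and IFIT1 lie far above 0, F5, TM4SF4 and CPS1 far below it, and large negative values outnumber large positive ones.

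One chromosome stood apart. Genes of chromosome 2 had a median log2 fold change of -0.42 (1154 genes, a ratio of 0.749), 58.6% of them were called lower and 8.15% higher, and the median was negative in every window of 40 or more neighbouring genes along it, from -0.65 to -0.19. Outside chromosomes 2 and 9 the medians of the other 21 chromosomes ran from -0.03 to 0.09. Against WT, the windows of chromosome 2 ran from -0.77 to -0.15 in YTHDF1 KO and from -0.15 to 0.28 in siARID1A. Chromosome 9 had a median of 0.03 in the direct comparison, but in its windows beyond position 83623049 (GRCh38) both groups were low against WT, by -0.63 to -0.39 in YTHDF1 KO and -0.69 to -0.38 in siARID1A. On chromosome 17, the windows from position 40140318 to 81833302 were high against WT in both groups. They ran from 0.16 to 0.42 in YTHDF1 KO and from 0.13 to 0.56 in siARID1A, and from -0.25 to 0.18 in the direct comparison. Genes that lie on chromosome 2 are marked as such where they are named. The part of these regional shifts in any 1 gene was not tested.

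**Figure D2:**
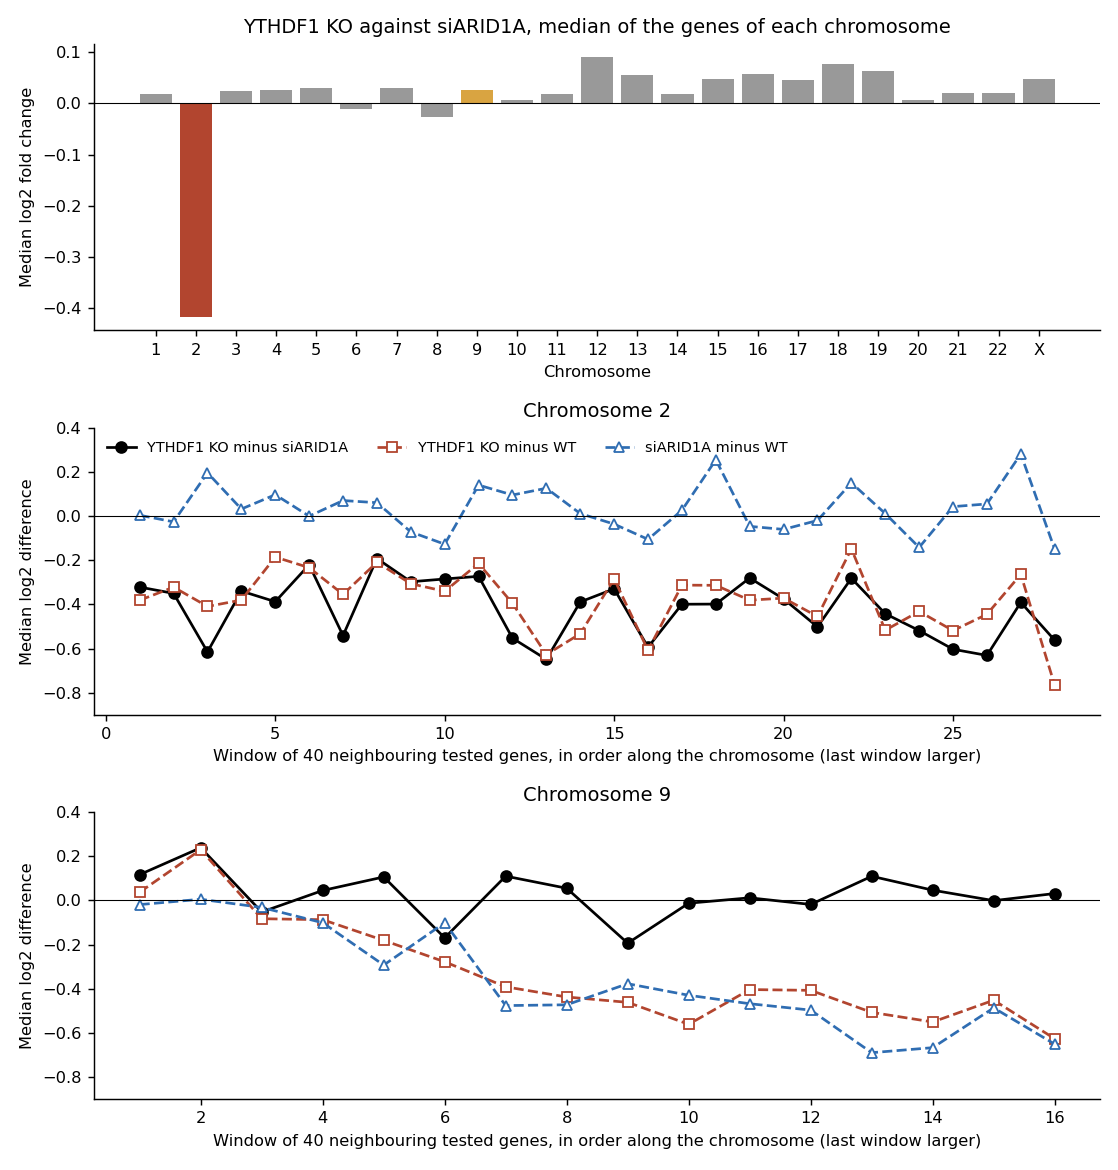
The top panel gives the median log2 fold change of the genes of each chromosome (bars), and the lower panels give medians in consecutive windows of 40 or more tested genes along chromosomes 2 and 9 for the direct comparison (filled circles) and for each group against WT (open symbols). Chromosome 2 lies below 0 in every window, while on chromosome 9 both groups are lowest against WT in the windows beyond position 83623049, where the direct comparison runs from -0.19 to 0.11.

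The interferon genes themselves were detected in YTHDF1 KO and hardly at all in siARID1A. IFNL1, a type III interferon made mainly by epithelial cells, had 388 counts over the YTHDF1 KO libraries and 0 over the siARID1A libraries, at least 110-fold higher when the group without counts is set at a floor of 3. IFNB1, the type I interferon of most non-immune cells, had 96 counts against 0, at least 27.3-fold higher. IFNL3 had 474 counts against 2, a ratio of 202 with a 95% counting interval of 55.7 to 1676, and its near-identical copy IFNL2 had 289 against 2. Their levels were low all the same, with 3.37 ± 0.0618 CPM of IFNL1 and 0.829 ± 0.191 CPM of IFNB1 in YTHDF1 KO. The combined group stood higher still, with 9.86 ± 0.796 CPM of IFNL1 and 5.42 ± 0.984 CPM of IFNB1, and neither had a count in any WT library. Of 16 genes for interferons, their receptors and their signalling kinases, 8 were higher in YTHDF1 KO, 2 were lower and 6 were not called, with a median of 0.58. Of those higher, IFNB1, IFNE and JAK2 lie on chromosome 9. Without chromosomes 2 and 9 the number higher was 4 and the median 0.14, and at 5 CPM or more in 3 libraries they were 2 and 0.13. The number lower was 1 with no filter and without YTHDF1 KO replicate 2 or 3 or siARID1A replicate 1 or 3. The kinase gene JAK2 was higher (21.2 against 10.97 CPM, 0.95), as was JAK1 (453 against 323 CPM, 0.49), and IFNGR1, a chain of the interferon gamma receptor, was lower (19.8 against 33.9 CPM, -0.78). Of the receptor chains of type III interferons, IL10RB was lower (0.806 against 1.43 CPM, -0.83) and IFNLR1 was not called (2.84 against 2.82 CPM, 0.01). Of those of type I interferons, IFNAR1 was higher (62.3 against 55.5 CPM, 0.16) and IFNAR2 was not called (1.42 against 1.35 CPM, 0.08). These chains were picked after their values were seen.

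Sensors of viral RNA were higher in YTHDF1 KO while the DNA sensor cGAS was lower. RIGI, which recognises RNA ends, stood at 65.5, 70.8 and 75.5 CPM in the YTHDF1 KO libraries and 19.7, 21.6 and 23.8 CPM in the siARID1A libraries, and IFIH1 (MDA5), which recognises long double-stranded RNA, at 29.01, 29.96 and 30.7 CPM in YTHDF1 KO and 11.7, 9.92 and 11.8 CPM in siARID1A. Neither gene's groups overlapped, and the log2 fold changes were 1.70, SE 0.0969, adjusted p = 6.02e-16 for RIGI and 1.42, SE 0.08402, adjusted p = 1.11e-12 for IFIH1, the latter on chromosome 2 and against its general direction. MAVS, the mitochondrial adaptor through which both sensors signal, went the other way at 241 ± 2.76 CPM against 371 ± 17.2 CPM (-0.62, SE 0.0395, adjusted p = 4.03e-10). The transcription factor IRF5 (7.600 against 13.99 CPM, -0.88) was also lower, and ENPP1, which degrades the messenger made by cGAS, was higher (12.4 against 6.82 CPM, 0.85). CGAS was close to the detection limit in both groups, at 0.105, 0 and 0.225 CPM in YTHDF1 KO and 0.304, 1.005 and 0.478 CPM in siARID1A, and was lower in YTHDF1 KO (-2.45, SE 0.819, adjusted p = 0.00534). That call was lost when siARID1A replicate 2 was left out (adjusted p = 0.0638). STING1, the adaptor downstream of cGAS, was not called (1.38 ± 0.293 CPM against 1.02 ± 0.0474 CPM, adjusted p = 0.243). Over the 22 of 25 sensing genes tested, 7 were higher in YTHDF1 KO, 6 were lower and 9 were not called, with a median of 0.13, so the list as a whole showed no common direction. Almost no counts were found for TREX1 in any of the 6 libraries, nor for IRF9 of the interferon-stimulated list, and nothing can be said of these.

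Interferon-stimulated genes carry a short promoter element, the interferon-stimulated response element, through which the interferon-activated complex that holds STAT2 and IRF9 acts. Promoter stretches of 3 of the genes highest in YTHDF1 KO and of 2 uncalled genes that hold the same letters are printed so that called and uncalled genes can be read side by side. Capitals mark each match to GAAA, any 2 bases and GAAA, or to its reverse complement, sequences are from RefSeq (GRCh38.p14) and are read 5′ to 3′ on the strand of the gene. The stretches are IFIT1 (chr10:89392500-89392549, plus strand), ISG15 (chr1:1013370-1013419, plus strand), IFI6 (chr1:27672256-27672305, minus strand), PARP14 (chr3:122680790-122680838, plus strand) and DDX60L (chr4:168480513-168480562, minus strand).
IFIT1: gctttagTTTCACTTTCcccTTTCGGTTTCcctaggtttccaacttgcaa
ISG15: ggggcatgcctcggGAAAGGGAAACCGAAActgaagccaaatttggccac
IFI6: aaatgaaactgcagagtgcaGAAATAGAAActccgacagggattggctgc
PARP14: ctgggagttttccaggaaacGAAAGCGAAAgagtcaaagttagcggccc
DDX60L: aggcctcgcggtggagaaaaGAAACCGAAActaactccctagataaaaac
In the window from 250 bases before to 50 bases after the start site, these letters occurred on either strand in 3.65% of all 27195 RefSeq promoters and in 25 of the 37 list members with a window (67.6%). Among the 11908 genes tested that have a window, they occurred in 2.75%. They were present in 18 of 24 members that were higher, in 5 of 7 that were not called and in 2 of 6 that were lower. PARP14 and DDX60L were picked after their values were seen.

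Interferon-stimulated genes were mostly higher in YTHDF1 KO, several of them by far. Of the 47 of 51 tested, 31 were higher in YTHDF1 KO, 7 were lower and 9 were not called, so 66.0% were higher against 25.7% of all genes. Their median was 0.86 against 0.0038 over all genes. IFIT1, which binds viral RNA lacking the host cap, stood at 159.7, 157 and 161 CPM in the YTHDF1 KO libraries and 9.91, 13.5 and 13.5 CPM in the siARID1A libraries. ISG15, a ubiquitin-like modifier, stood at 81.9, 79.97 and 80.4 CPM in the YTHDF1 KO libraries and 8.06, 6.78 and 7.402 CPM in the siARID1A libraries, and IFI6, an inhibitor of apoptosis and of viral replication, at 170.4, 173 and 165 CPM in the YTHDF1 KO libraries and 17.9, 16.96 and 19.5 CPM in the siARID1A libraries. In each of these genes the lowest YTHDF1 KO library was several times the highest siARID1A library. The log2 fold changes were 3.69, SE 0.149, adjusted p = 1.30e-19 for IFIT1, 3.44, SE 0.07200, adjusted p = 4.67e-22 for ISG15 and 3.22, SE 0.0613, adjusted p = 6.62e-23 for IFI6. OASL, a relative of the RNA-activated oligoadenylate synthetases that boosts RIG-I signalling, was at 102 ± 4.04 CPM against 2.402 ± 0.193 CPM (5.41, SE 0.0741, adjusted p = 9.60e-25). IFIT2 was at 114 ± 2.65 CPM against 5.85 ± 0.544 CPM (4.28, SE 0.0812, adjusted p = 8.53e-24), IFIT3 at 69.7 ± 1.798 CPM against 7.38 ± 1.99 CPM (3.24, SE 0.232, adjusted p = 1.33e-10), the oligoadenylate synthetase OAS2 at 23.01 ± 1.19 CPM against 0.8597 ± 0.355 CPM (4.73, SE 0.317, adjusted p = 4.81e-18) and HERC5, the ligase that attaches ISG15, at 54.9 ± 2.95 CPM against 7.41 ± 1.14 CPM (2.89, SE 0.133, adjusted p = 6.80e-19).

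The response was uneven across the list. WT was nearer to siARID1A than to YTHDF1 KO for all 31 members that were higher. It lay below both groups for 28 of them and between the groups for 3. For most of these members siARID1A was therefore above WT as well, with YTHDF1 KO farther above it. siARID1A cells were not at the WT level either: IFIT1 stood at 1.901 CPM in WT, 12.3 CPM in siARID1A and 487 CPM in the combined group. The members that were lower in YTHDF1 KO were SP110, SP100, GBP2, GBP1, UBE2L6, PARP12 and STAT2, of which SP110 and SP100 lie on chromosome 2, and their log2 fold changes ran from -1.23 to -0.24. PARP14 did not pass the test (80.1 ± 4.87 CPM against 79.4 ± 4.498 CPM, adjusted p = 0.902). These members were named after their values were seen. The median of the list was 0.54 when at least 5 CPM in 3 libraries was required. Among its members, IFITM1, BST2, RTP4 and IRF9 did not pass the filter on low counts.

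Among chemokines that attract T cells, CCL5 had the largest rise of any protein-coding gene with a mean of at least 10 CPM and no overlap between the groups. It stood at 44.9, 45.8 and 44.1 CPM in the YTHDF1 KO libraries and 0.122, 0.314 and 0.298 CPM in the siARID1A libraries. The siARID1A libraries were near 0 and the YTHDF1 KO libraries within a few percent of each other (log2 fold change 7.50, SE 0.343, adjusted p = 7.13e-23), with 0.0147 CPM in WT and 137 ± 17.4 CPM in the combined group. CXCL10, which draws CXCR3-bearing T cells, was at 4.99, 4.05 and 4.42 CPM in YTHDF1 KO and 0.0608, 0 and 0.179 CPM in siARID1A (5.73, SE 0.602, adjusted p = 3.91e-12). CXCL11, a ligand of the same receptor, had 560 counts against 2, a ratio of 239 with a 95% counting interval of 65.9 to 1979. CCL20 (2.797 against 4.87 CPM, -0.80, on chromosome 2) and CXCL16 (10.4 against 13.2 CPM, -0.34) were lower, so of the 5 members tested of 8, 3 were higher and 2 lower. CXCL9, CCL3 and CCL4 did not pass the filter on low counts. At 5 CPM or more in 3 libraries 1 was higher and 1 lower.

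Chemokines for neutrophils and monocytes were also higher in YTHDF1 KO. CXCL5 stood at 766, 784 and 774 CPM in the YTHDF1 KO libraries and 198, 240.3 and 233 CPM in the siARID1A libraries, with the groups far apart (1.79, SE 0.0864, adjusted p = 4.69e-18). CXCL1 (66.5 against 21.5 CPM, 1.63), CXCL8 (13.2 against 4.25 CPM, 1.63), CXCL2 (12.1 against 6.55 CPM, 0.88) and the monocyte chemokine CCL2 (82.02 against 33.2 CPM, 1.30) were higher as well, with IL11 (22.6 against 12.96 CPM, 0.80). Among the members called higher, WT lay below both groups for 5 and above both for 2. IL11 was 1 of the latter, at 55.5 CPM in WT. Over the 11 of 17 genes tested, 8 were higher and 2 lower, with a median of 0.88. IL1A (0.0992 against 0.446 CPM, -2.08, on chromosome 2) and CSF1 (42.7 against 53.4 CPM, -0.32) were the lower ones and IL6 was not called. The number lower was 1 without YTHDF1 KO replicate 1 or 3 or siARID1A replicate 3. The NF-kB list did not follow them: of 20 genes, 5 were higher in YTHDF1 KO, 10 were lower and 5 were not called, with a median of -0.26. BCL3 (86.9 against 42.1 CPM, 1.05), IER3 (40.9 against 15.7 CPM, 1.38), NFKBIZ (13.7 against 6.14 CPM, 1.16) and RIPK2 (83.6 against 49.1 CPM, 0.77) were higher, while the inhibitors NFKBIA (103 against 144 CPM, -0.49) and TNIP1 (143 against 222 CPM, -0.63) were lower. For 9 of the 10 lower members WT was nearer to YTHDF1 KO, and for 9 of the 10 it lay below both groups. The median was -0.11 without siARID1A replicate 2.

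Antigen presentation genes were split. B2M, the light chain shared by class I molecules, stood at 161, 174 and 165 CPM in the YTHDF1 KO libraries and 119, 129.8 and 125 CPM in the siARID1A libraries and was higher (0.42, SE 0.04801, adjusted p = 8.64e-07). PSMB9, an immunoproteasome subunit (11.5 against 16.96 CPM, -0.56), and PSME2, a proteasome activator (64.7 against 80.05 CPM, -0.31), were lower, and the peptide-loading chaperones CALR (840.0 against 504 CPM, 0.74) and PDIA3 (404 against 234 CPM, 0.79) were higher together with other endoplasmic reticulum chaperones. In all, 20 of 21 members were tested, 4 were higher in YTHDF1 KO, 8 were lower and 8 were not called, with a median of -0.16 that was -0.03 without siARID1A replicate 2. All 8 lower members had a WT level nearer to YTHDF1 KO, and for 6 of them it was below both groups. Class I heavy chain genes have close copies and pseudogenes, so their counts could be divided among them.

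Checkpoint ligands and surface regulators had no common direction, with 6 higher and 5 lower of 17 tested (21 listed). CD24, the "do not eat me" ligand of Siglec-10, was lower, at 212 ± 6.25 CPM against 776 ± 95.3 CPM (-1.88, SE 0.109, adjusted p = 2.95e-15). VSIR (VISTA) was lower (20.96 against 72.8 CPM, -1.79), as was the complement inhibitor CD55 (130.1 against 240.1 CPM, -0.88). NT5E (CD73), which makes adenosine, was higher (65.00 against 25.4 CPM, 1.36), as were NECTIN3 (78.5 against 24.9 CPM, 1.65) and CD59 (195 against 126 CPM, 0.64). CD274 (PD-L1) was scarce, at 1.94, 1.88 and 2.36 CPM in YTHDF1 KO and 1.28, 1.696 and 1.16 CPM in siARID1A, and was not called (0.58, SE 0.186, adjusted p = 0.066). Its adjusted p was 0.0307 without siARID1A replicate 2, 0.0495 with library totals for scaling and 0.0486 in a fit of all 12 libraries.

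**Figure D3:**
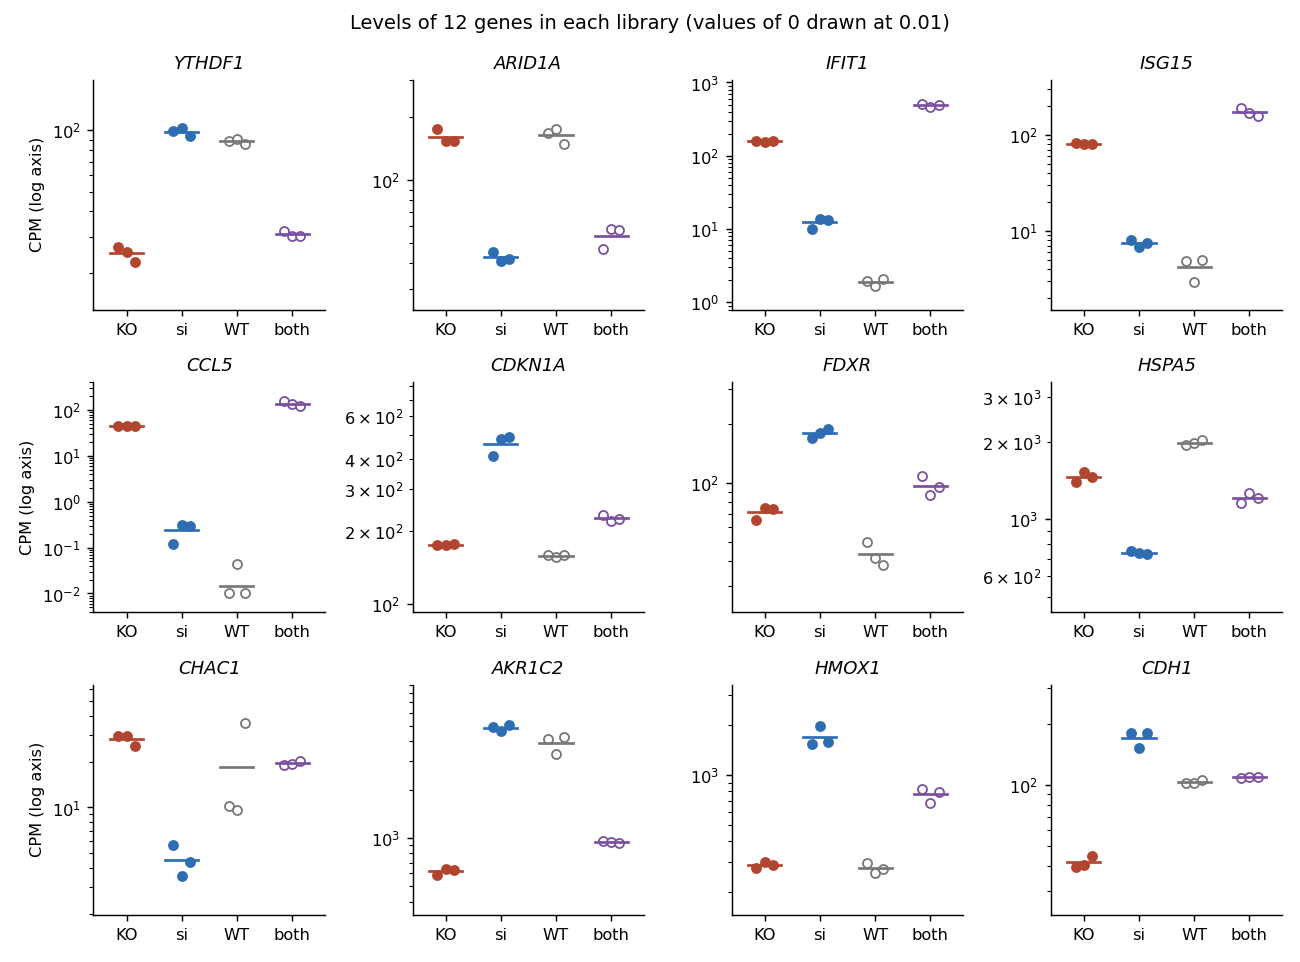
Level of 12 genes in each library in CPM on log axes (points) with the group mean (lines), for YTHDF1 KO (KO) and siARID1A (si) as filled points and for WT and the combined group (both) as open points scaled over 12 libraries. Values of 0 are drawn at 0.01. IFIT1, ISG15 and CCL5 are high where YTHDF1 is low, CDKN1A, FDXR and HMOX1 are high in siARID1A, and AKR1C2 is low in YTHDF1 KO and near the WT level in siARID1A.

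The p53 target genes went the other way and had the largest share of lower members among the 40 lists of pathways. All 35 were tested: 30 (85.7%, against 26.3% of all genes) were lower in YTHDF1 KO, which is to say higher in siARID1A, and 2 were higher. Their median was -0.71. CDKN1A (p21), the inhibitor of cyclin-dependent kinases, stood at 176, 175 and 177 CPM in the YTHDF1 KO libraries and 412, 483 and 491 CPM in the siARID1A libraries. FDXR, a mitochondrial reductase, stood at 65.3, 74.9 and 73.6 CPM in the YTHDF1 KO libraries and 170.3, 179 and 188 CPM in the siARID1A libraries, and TP53INP1, a p53 cofactor, at 12.8, 11.6 and 12.8 CPM in the YTHDF1 KO libraries and 43.9, 43.1 and 50.6 CPM in the siARID1A libraries. The siARID1A libraries were high in each of them with no overlap, and the log2 fold changes were -1.39, SE 0.0811, adjusted p = 4.60e-16, -1.33, SE 0.0743, adjusted p = 1.45e-15 and -1.89, SE 0.0876, adjusted p = 6.70e-16. CCNG1 (86.1 against 225 CPM, -1.39), PHLDA3 (98.6 against 231 CPM, -1.23) and TP53I3 (75.9 against 254 CPM, -1.74, on chromosome 2) had the same direction. WT was nearer to YTHDF1 KO for 29 of the 30 lower members and lay below both groups for 20 of the 30. CDKN1A was at 158 CPM in WT, 176 CPM in YTHDF1 KO and 226 CPM in the combined group. The members that were higher in YTHDF1 KO were GDF15 (229.5 against 157 CPM, 0.55) and PMAIP1 (32.7 against 20.3 CPM, 0.69), a secreted stress cytokine and a BH3-only killer protein, named because they were the exceptions.

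Genes of the cell cycle were mostly lower in siARID1A than in YTHDF1 KO. Of 47 genes of DNA replication and S phase, all tested, 37 (78.7%, against 25.7% of all genes) were higher in YTHDF1 KO, 0 were lower and 10 were not called, with a median of 0.45. SLBP, which binds the stem-loop at the end of histone messages, stood at 64.4, 69.3 and 65.99 CPM in the YTHDF1 KO libraries and 20.9, 20.6 and 19.6 CPM in the siARID1A libraries and differed most (1.71, SE 0.0415, adjusted p = 7.88e-17). GINS4, part of the replicative helicase (63.3 against 31.6 CPM, 1.004), CLSPN, an adaptor of the replication checkpoint (57.1 against 33.5 CPM, 0.77), the polymerase subunits POLD3 (43.7 against 25.6 CPM, 0.77) and POLA1 (64.3 against 41.01 CPM, 0.65), and WDHD1 (65.5 against 43.1 CPM, 0.61) were higher. These differences were modest in size but in 1 direction, and WT was nearer to YTHDF1 KO for 34 of the 37 higher members. It lay above both groups for 21 of the 37, so there the YTHDF1 KO mean was below WT as well. Of 40 G2/M and mitosis genes, 28 were higher in YTHDF1 KO, 2 were lower and 10 were not called, with a median of 0.31. The higher share was 70%, against 25.7% of all genes. The phosphatase CDC25B, which activates CDK1, stood at 626, 630.3 and 616 CPM in the YTHDF1 KO libraries and 137, 123 and 115 CPM in the siARID1A libraries (2.32, SE 0.0724, adjusted p = 8.59e-21). Its difference was far beyond the rest of that list, whose next largest included HMMR (66.5 against 40.1 CPM, 0.73), BUB1B (69.6 against 43.2 CPM, 0.69), the condensin subunits SMC2 (84.4 against 52.9 CPM, 0.67) and SMC4 (155 against 102 CPM, 0.60), and ECT2 (359 against 233 CPM, 0.62). For all 28 higher members WT was nearer to YTHDF1 KO (27 without WT replicate 2). It lay above both groups for 22 of them, so there the YTHDF1 KO mean was below WT as well. The lower members were BUB1 and NCAPH, both on chromosome 2, and the number lower was 4 without siARID1A replicate 3.

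Replication-dependent histone genes, whose messages normally lack a poly(A) tail, differed in the opposite sense to the replication genes. Of 34 listed, 20 passed the filter on low counts and 11 of those were lower in YTHDF1 KO, 0 higher and 9 not called, with a median of -0.71. At 5 CPM or more in 3 libraries the number lower was 5. H1-2 stood at 13.8, 14.3 and 14.9 CPM in the YTHDF1 KO libraries and 34.1, 34.98 and 41.8 CPM in the siARID1A libraries (-1.37, SE 0.0973, adjusted p = 1.21e-12), and H2AC6 (17.6 against 31.9 CPM, -0.85), H2BC5 (13.4 against 22.2 CPM, -0.73), H2BC12 (22.03 against 32.6 CPM, -0.57), H4C8 (4.64 against 9.76 CPM, -1.07) and H4C14 (0.8898 against 2.28 CPM, -1.36) were lower too. SLBP and these histone messages differed in opposite directions in the same libraries, and the labels do not say whether poly(A) RNA was selected. Histone genes are near-identical copies, so their counts are uncertain.

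DNA repair genes, which bear on the R-loops of the series title, were mostly higher in YTHDF1 KO. Of 50 damage signalling and repair genes, 36 were higher in YTHDF1 KO, 1 was lower and 13 were not called, with a median of 0.37. The higher share was 72%, against 25.7% of all genes. XRCC5 (Ku80), an end-binding protein of non-homologous joining, stood at 345, 349 and 357 CPM in the YTHDF1 KO libraries and 143, 133 and 121 CPM in the siARID1A libraries, and was higher (1.41, SE 0.0713, adjusted p = 2.07e-16), although it lies on chromosome 2. XRCC5 was at 529 ± 28.04 CPM in WT and at 121 ± 15.2 CPM in the combined group, so both groups that received the small interfering RNA were low. BRCA1 (141 against 77.4 CPM, 0.87), BRCA2 (28.5 against 16.1 CPM, 0.82), FANCI (201 against 125 CPM, 0.69), TP53BP1 (99.1 against 61.2 CPM, 0.69) and NBN (139.6 against 87.9 CPM, 0.67) were higher too. RAD51C was the member that was lower (40.9 against 47.2 CPM, -0.21), and the number lower ran from 0 to 3 under the alternatives run. For 30 of the 36 higher members WT was nearer to YTHDF1 KO (29 without WT replicate 2), and for 20 of the 36 it lay above both groups.

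Of 40 of 41 R-loop factors tested, 20 were higher in YTHDF1 KO, 3 were lower and 17 were not called, with a median of 0.24. The shares were 50% higher and 7.5% lower, against 25.7% and 26.3% of all genes. In either direction 57.5% were called, against 52% of all genes. The helicase DDX21 stood at 452, 451 and 469 CPM in the YTHDF1 KO libraries and 251, 274 and 223 CPM in the siARID1A libraries and differed most (0.87, SE 0.0882, adjusted p = 1.09e-11). FANCM, a translocase at stalled forks (20.3 against 12.1 CPM, 0.75), the corepressor SIN3A (136 against 85.9 CPM, 0.67), the repair nuclease ERCC4 (47.8 against 32.7 CPM, 0.55), PARP1 (233 against 163 CPM, 0.51) and METTL3, the N6-methyladenosine writer (73.7 against 53.1 CPM, 0.47), were higher. The lower members were RNASEH1, DDX1 and DDX18, all on chromosome 2. RNASEH1, which digests the RNA strand of hybrids, stood at 70.4, 64.6 and 65.9 CPM in the YTHDF1 KO libraries and 101.4, 111 and 105 CPM in the siARID1A libraries (-0.66, SE 0.0536, adjusted p = 9.85e-10), with 88.7 CPM in WT. The helicase AQR (129.8 against 109.9 CPM, 0.24) was higher and DHX9 was not called, both named after their values were seen. In 16 of the 20 higher members the WT level was nearer to YTHDF1 KO, and in 12 of the 20 it was above both groups.

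Chaperones of the endoplasmic reticulum were mostly lower in siARID1A than in YTHDF1 KO. Some of them carry the endoplasmic reticulum stress element. Stretches with it are printed for 3 genes that were higher and for XBP1, an uncalled regulator of the same response picked after its values were seen. Capitals mark CCAAT, any 9 bases and CCACG, or the reverse complement (RefSeq, GRCh38.p14), 5′ to 3′ on the strand of the gene: HSPA5 (chr9:125241371-125241429, minus strand), HSP90B1 (chr12:103930301-103930359, plus strand), CRELD2 (chr22:49918534-49918592, plus strand) and XBP1 (chr22:28800583-28800641, minus strand).
HSPA5: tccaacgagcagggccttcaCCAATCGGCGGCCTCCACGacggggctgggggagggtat
HSP90B1: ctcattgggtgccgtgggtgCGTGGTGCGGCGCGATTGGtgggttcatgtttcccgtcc
CRELD2: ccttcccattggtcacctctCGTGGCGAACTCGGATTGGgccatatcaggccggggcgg
XBP1: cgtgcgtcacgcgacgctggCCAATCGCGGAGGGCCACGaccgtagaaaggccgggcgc
These letters occurred in 0.0809% of the 27195 promoter windows and in 0.118% of those of genes tested. They were found in 7 of the 29 list members with a window, 4 of 17 that were higher and 3 of 10 that were not called.

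Of the 31 of 32 chaperone and unfolded-protein genes tested, 19 were higher in YTHDF1 KO, 2 were lower and 10 were not called, with a median of 0.38. The higher share was 61.3%, against 25.7% of all genes. The number lower was 1 with library totals and without YTHDF1 KO replicate 1 or 3 or siARID1A replicate 2 or 3. HSPA5 (BiP, on chromosome 9), the main luminal chaperone, stood at 1392, 1524 and 1456 CPM in the YTHDF1 KO libraries and 751, 737 and 731 CPM in the siARID1A libraries. The siARID1A libraries were close to each other and well below all YTHDF1 KO libraries (0.98, SE 0.0397, adjusted p = 3.68e-14), and WT stood above both at 1981 ± 45.6 CPM. HSP90B1 (1354 against 689 CPM, 0.98), HYOU1 (179.9 against 89.4 CPM, 1.01), CRELD2 (121 against 47.04 CPM, 1.36) and the disulfide isomerases PDIA4 (824 against 358 CPM, 1.20) and PDIA6 (407 against 146 CPM, 1.48, on chromosome 2) were higher. XBP1 was not called (126 against 119 CPM, 0.08), nor were ERN1 and DNAJB9, further genes of the same response picked after their values were seen. WT was nearer to YTHDF1 KO for 14 of the 19 higher members (15 without WT replicate 2) and lay above both groups for 10 of the 19.

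Amino acid genes of the ATF4 pathway shared that direction in part. Of 35, all tested, 21 were higher in YTHDF1 KO, 8 were lower and 6 were not called, with a median of 0.42. The shares were 60% higher and 22.9% lower, against 25.7% and 26.3% of all genes. CHAC1, a glutathione-degrading enzyme, stood at 29.4, 29.3 and 25.4 CPM in the YTHDF1 KO libraries and 5.66, 3.55 and 4.39 CPM in the siARID1A libraries (2.63, SE 0.204, adjusted p = 1.18e-14). The serine and folate enzymes PSAT1 (482 against 174 CPM, 1.47), PHGDH (129 against 52.7 CPM, 1.29) and MTHFD2 (229 against 85.3 CPM, 1.42, on chromosome 2) were higher in YTHDF1 KO as well. The amino acid transporter subunits SLC7A5 (2015 against 3877 CPM, -0.94) and SLC3A2 (746 against 1482 CPM, -0.99) and the stress factor ATF3 (12.5 against 22.5 CPM, -0.84) were lower, so these enzymes and transporters of the list differed in opposite directions. SLC7A5 was at 4555 CPM in WT and 2181 CPM in the combined group. For 19 of the 21 higher members WT was nearer to YTHDF1 KO, and for 12 of the 21 it lay above both groups.

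**Figure D4:**
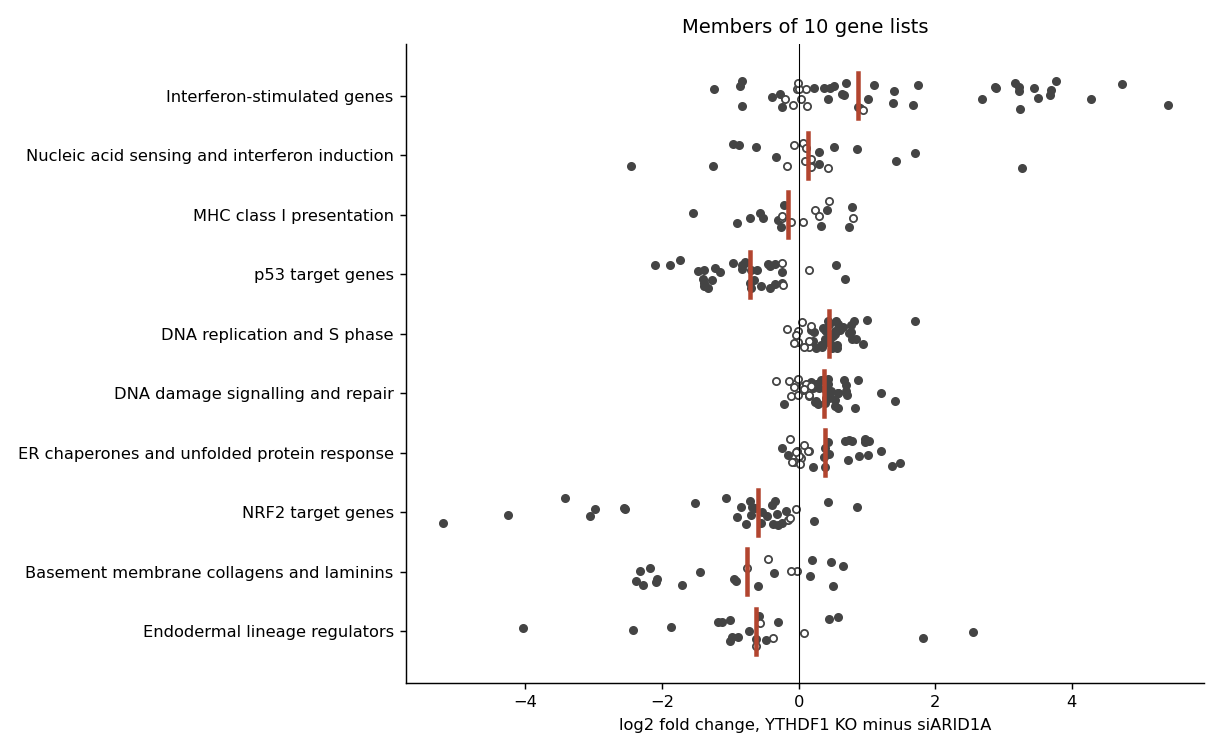
Each circle is a tested member of 1 of 10 lists at its log2 fold change (YTHDF1 KO minus siARID1A), filled where called, and the vertical bars are list medians. Interferon-stimulated genes spread from -1.23 to 5.41, p53 and NRF2 targets lie mostly below 0, and most replication, repair and chaperone genes lie above it.

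NRF2 target genes, the detoxification programme that A549 cells run constantly because their KEAP1 is mutated, were lower in YTHDF1 KO. All 32 were tested: 26 (81.2%, against 26.3% of all genes) were lower, 3 were higher and 3 were not called. Their median was -0.59. Of the aldo-keto reductases, which reduce carbonyls, AKR1C2 stood at 588, 643 and 631 CPM in the YTHDF1 KO libraries and 4909, 4661 and 5069.8 CPM in the siARID1A libraries. AKR1B10 stood at 339.5, 362 and 339 CPM in the YTHDF1 KO libraries and 2537, 2757 and 3332 CPM in the siARID1A libraries and AKR1C1 at 104, 114 and 115 CPM in the YTHDF1 KO libraries and 1089.8, 1110.2 and 1361 CPM in the siARID1A libraries. Every YTHDF1 KO library was several times below every siARID1A library in these genes, with log2 fold changes of -2.98, SE 0.0527, adjusted p = 2.46e-23, -3.05, SE 0.1204, adjusted p = 1.20e-14 and -3.42, SE 0.114, adjusted p = 1.09e-17, and AKR1C3 (354 against 2074 CPM, -2.55) and AKR1B1 (1772 against 5069 CPM, -1.52) followed. AKR1C genes are close copies, so reads could be divided among them. WT was nearer to siARID1A for these enzymes, with 3912 CPM of AKR1C2 and 2614 CPM of AKR1B10, and for 20 of the 26 lower members in all. HMOX1, haem oxygenase, differed in its reference: it stood at 277, 300.1 and 289 CPM in the YTHDF1 KO libraries and 1541, 1965 and 1582 CPM in the siARID1A libraries (-2.55, SE 0.116, adjusted p = 4.28e-15), with 275 CPM in WT, so there siARID1A was the group apart. GPX2, a glutathione peroxidase, stood at 40.3, 38.2 and 41.1 CPM in the YTHDF1 KO libraries and 744, 581 and 968 CPM in the siARID1A libraries (-4.26, SE 0.215, adjusted p = 7.06e-05), and the P450 CYP4F11 was lower too (0.4099 against 15.3 CPM, -5.21). The members that were higher were ALDH3A1 (614 against 339.7 CPM, 0.85), NQO1 (1243 against 919 CPM, 0.44) and FTH1 (1551 against 1333 CPM, 0.22), so the classical target NQO1 did not follow the reductases. The core antioxidant element TGACNNNGC was found in 7 of the 20 lower members with a promoter window (35.0%). It was found in 13.6% of all windows and in 15.2% of those of genes tested. Aldehyde dehydrogenases and cytochrome P450s, some of which are in the same list, were lower in 15 and higher in 4 of 24 tested (median -0.47), with CYP4F3 (20.6 against 91.03 CPM, -2.14), ALDH2 (32.8 against 113 CPM, -1.78), ALDH3B1 (102 against 292 CPM, -1.52) and the reductase POR (132 against 244 CPM, -0.88) lower.

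Several epithelial genes were lower in YTHDF1 KO, some of them with siARID1A above WT. E-cadherin, CDH1, stood at 39.7, 40.6 and 44.7 CPM in the YTHDF1 KO libraries and 181, 153 and 181 CPM in the siARID1A libraries (-2.04, SE 0.0955, adjusted p = 3.34e-18), with 104 ± 2.42 CPM in WT, so the groups lay on either side of unmodified cells. EPCAM was lower (0.784 against 8.19 CPM, -3.36, on chromosome 2), and the simple keratins KRT8 (1485 against 3642 CPM, -1.29), KRT18 (913 against 2077 CPM, -1.19) and KRT7 (1188 against 2004 CPM, -0.75) were lower, with KRT19 near 0 (0.0363 against 1.02 CPM, -4.74). KRT16 (1.16 against 0.101 CPM, 3.47) and KRT17 (5.101 against 0.4103 CPM, 3.63), keratins of stressed squamous epithelium, were higher at low levels, and both have close copies. The keratin list had 4 higher and 5 lower of 11 tested (14 listed), and 1 higher and 3 lower at 5 CPM or more in 3 libraries. Mesenchymal markers had no common direction. CDH2, N-cadherin (57.00 against 30.7 CPM, 0.89), and TWIST1 (9.64 against 3.14 CPM, 1.61) were higher, S100A4 (394 against 684 CPM, -0.80) was lower, and VIM, picked after its values were seen, was not called (516 against 485 CPM, 0.09). Of 21 genes of the epithelial to mesenchymal transition tested (25 listed), 6 were higher and 6 lower, with a median of 0.02.

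Regulators of endodermal lineage were lower in 14 and higher in 4 of 22 tested (24 listed), with a median of -0.62. FOXA1, a pioneer factor, stood at 5.94, 5.25 and 6.11 CPM in the YTHDF1 KO libraries and 22.7, 17.5 and 23.1 CPM in the siARID1A libraries (-1.87, SE 0.145, adjusted p = 7.65e-13). HNF4A (35.5 against 71.2 CPM, -1.004), SOX9 (56.8 against 111 CPM, -0.97) and KLF5 (104 against 155 CPM, -0.58) were lower, while SOX4 was higher at 131 ± 5.96 CPM against 37.3 ± 6.39 CPM (1.82, SE 0.154, adjusted p = 5.52e-10). The reference differed by gene, with HNF4A at 129 CPM in WT, above both groups, and SOX9 at 72.7 CPM, between them. Tight junction genes were lower in 9 and higher in 4 of 19 tested (20 listed): CRB3 (0.532 against 3.65 CPM, -2.79), TJP3 (2.41 against 8.51 CPM, -1.82), PARD6B (13.6 against 27.8 CPM, -1.04) and F11R (32.4 against 46.3 CPM, -0.52) were lower, and CLDN1 (391 against 200.3 CPM, 0.97) and OCLN (18.4 against 11.5 CPM, 0.67) were higher.

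Complement and coagulation genes were mostly lower as well. F5, coagulation factor V, had the largest fall of any protein-coding gene with a mean of at least 10 CPM and no overlap, and stood at 0.158, 0.0964 and 0.225 CPM in the YTHDF1 KO libraries and 41.6, 32.2 and 47.9 CPM in the siARID1A libraries. The YTHDF1 KO libraries were near 0 (-7.99, SE 0.305, adjusted p = 9.24e-17), with 18.9 CPM in WT and 0.371 CPM in the combined group. Of 23 complement and coagulation genes tested (28 listed), 5 were higher in YTHDF1 KO, 14 were lower and 4 were not called, with a median of -1.05. At 5 CPM or more in 3 libraries the number lower was 9 and the median -0.23. The complement proteases C1R (8.92 against 25.9 CPM, -1.53) and C1S (44.1 against 113 CPM, -1.35), tissue factor F3 (1.003 against 3.35 CPM, -1.74) and SERPINE2 (47.6 against 98.4 CPM, -1.05, on chromosome 2) were lower. PLAUR, the urokinase receptor, was higher at 89.8 ± 4.46 CPM against 27.7 ± 3.17 CPM (1.69, SE 0.107, adjusted p = 5.41e-16), as was THBD (11.1 against 3.09 CPM, 1.84).

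Basement membrane genes were mostly lower in YTHDF1 KO and interstitial matrix genes were mixed. Of 21 basement membrane genes, 5 were higher in YTHDF1 KO, 12 were lower and 4 were not called, with a median of -0.76. COL4A1, a chain of the main basement membrane collagen, stood at 99.1, 93.6 and 94.1 CPM in the YTHDF1 KO libraries and 467, 409 and 424 CPM in the siARID1A libraries (-2.18, SE 0.0637, adjusted p = 2.05e-20). Its partner COL4A2 (198 against 645 CPM, -1.70) and the laminin chains LAMB3 (27.4 against 143 CPM, -2.38), LAMA3 (49.9 against 135 CPM, -1.44) and LAMA4 (11.5 against 48.3 CPM, -2.07) were lower, with nidogen NID2 (10.2 against 43.4 CPM, -2.09). The number of higher members was 2 without YTHDF1 KO replicate 1, and 3 without YTHDF1 KO replicate 3 or with all 12 libraries fitted. Of 24 interstitial genes tested (30 listed), 11 were higher in YTHDF1 KO, 9 were lower and 4 were not called. COL12A1 (552 against 105 CPM, 2.39), thrombospondin THBS1 (208 against 65.1 CPM, 1.67), COL5A2 (565 against 301 CPM, 0.91, on chromosome 2) and COL3A1 (5.88 against 0.419 CPM, 3.80, on chromosome 2) were higher, and TGFBI (684 against 1439 CPM, -1.07), FBLN1 (116 against 238 CPM, -1.04) and FBN1 (34.6 against 84.4 CPM, -1.29) lower. POSTN had 218 counts over the YTHDF1 KO libraries and 0 over the siARID1A libraries, at least 62.0-fold higher. COL3A1 and ACTA2 are also on the list of markers of other cells: ACTA2 was lower (6.59 against 22.2 CPM, -1.75), the opposite direction to COL3A1, and whether other cells contributed was not tested.

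Integrins were lower in 8 and higher in 6 of 19, and 4 of the lower ones, ITGB6, ITGA6, ITGA4 and ITGAV, lie on chromosome 2. ITGB6 was at 2.97 against 16.5 CPM (-2.47) and ITGB4, the hemidesmosome chain, at 209 against 422 CPM (-1.01). ITGA2 (155 against 59.6 CPM, 1.38), ITGA3 (1453 against 763 CPM, 0.93), ITGB5 (561 against 313 CPM, 0.84) and ITGA10 (9.72 against 2.92 CPM, 1.73) were higher. The median of -0.34 became -0.000646 and the number lower 4 without chromosomes 2 and 9.

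Feedback genes of the MAP kinase pathway, which rise with ERK activity, were mostly higher in YTHDF1 KO. Of 17 tested (18 listed), 12 were higher in YTHDF1 KO, 3 were lower and 2 were not called, with a median of 0.51. The phosphatase DUSP4 stood at 473, 449.7 and 470.4 CPM in the YTHDF1 KO libraries and 218, 213 and 216 CPM in the siARID1A libraries (1.11, SE 0.0246, adjusted p = 2.62e-15). ETV4 (69.6 against 22.1 CPM, 1.65), SPRY4 (28.9 against 10.1 CPM, 1.52) and PHLDA1 (163 against 68.7 CPM, 1.25) were higher. The phosphatases DUSP1 (197 against 493 CPM, -1.33) and DUSP5 (129 against 241 CPM, -0.90) were lower, against the direction of most of the list. WT was nearer to siARID1A for 11 of the 12 higher members and lay below both groups for 7 of the 12. Among ligands of the EGF receptor family, EREG was higher at 268 ± 7.82 CPM against 78.2 ± 14.6 CPM (1.78, SE 0.152, adjusted p = 1.30e-07), as were BTC (3.63 against 1.69 CPM, 1.11) and NRG2 (5.71 against 2.84 CPM, 1.004), with the inhibitor ERRFI1 (308 against 188 CPM, 0.71), while NRG1 (105 against 208 CPM, -0.98) and ERBB3 (5.72 against 12.9 CPM, -1.18) were lower. That family had 5 higher and 7 lower of 15 tested (17 listed). Immediate early genes were 6 higher and 10 lower of 23 tested (25 listed), with IER2 (62.3 against 29.1 CPM, 1.10) and KLF2 (22.7 against 11.9 CPM, 0.93) higher and FOSB (0.798 against 3.76 CPM, -2.23) and JUNB (55.2 against 82.4 CPM, -0.58) lower. Hippo-YAP genes were 7 higher and 9 lower of 20, with a median of -0.19 that was -0.10 without siARID1A replicate 2. AMOTL1 was at 21.2 against 104 CPM (-2.30) and YAP1 at 145 against 100.4 CPM (0.53).

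Cholesterol and fatty acid genes were 17 higher and 7 lower of 33 (median 0.23), with the desaturase SCD (2053 against 1198 CPM, 0.78) and the isoprenoid enzyme IDI1 (81.9 against 47.7 CPM, 0.78) higher. Hypoxia and glycolysis genes were 4 higher and 18 lower of 35 (median -0.35). NDRG1 (177 against 384 CPM, -1.12), CA12 (276 against 680.0 CPM, -1.30), PFKFB3 (313 against 639.7 CPM, -1.03) and HK1 (110.0 against 201 CPM, -0.87) were among the lower ones. Lysosome and autophagy genes were 4 higher and 17 lower of 36 tested (39 listed), with 7 higher when library totals were used for scaling and a median of -0.14. The lower ones included GABARAPL1 (34.6 against 118 CPM, -1.77), the cathepsin CTSD (52.8 against 114 CPM, -1.10) and SQSTM1 (789.7 against 1284 CPM, -0.70). In 13 of the 17 lower members the WT level was nearer to YTHDF1 KO (11 without WT replicate 2).

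Heat shock chaperones were 2 higher and 10 lower of 18 tested (20 listed), with HSPB8 (5.37 against 20.9 CPM, -1.96), DNAJB4 (26.3 against 47.3 CPM, -0.85) and HSPB1 (338 against 513 CPM, -0.60) lower and HSPD1 (742 against 1015 CPM, -0.45) and HSPE1 (33.2 against 51.8 CPM, -0.64) lower on chromosome 2. Cytosolic ribosomal protein genes were called lower in 49 and higher in 2 of 75 tested (76 listed), but by little (median -0.21), and the number lower was 12 in a fit of all 12 libraries. The 4 largest falls, RPL31, RPL37A, RPS7 and RPS27A, lie on chromosome 2, and RPL19 was the member higher by most (1114 against 771 CPM, 0.53). Nuclear genes of respiratory complex I were 10 higher and 6 lower of 37 tested (38 listed), with a median of -0.02. Their higher share, 27.0%, was close to the 25.7% of all genes, and their lower share was 16.2% against 26.3%. The 3 lowest members, NDUFB3, NDUFS1 and NDUFA10, lie on chromosome 2, the number lower was 3 without chromosomes 2 and 9, the number higher was 6 without YTHDF1 KO replicate 2, and NDUFA3 (33.4 against 19.5 CPM, 0.78) was higher. BCL2 family and death receptor genes were 4 higher and 9 lower of 23 tested (24 listed), and the number lower was 4 without chromosomes 2 and 9. CASP10, BCL2L11 and CFLAR lie on chromosome 2, BCL2L1 (144 against 198 CPM, -0.46) was lower elsewhere, and BCL2A1 (5.16 against 1.39 CPM, 1.89) was higher. Prostaglandin genes were 3 higher and 4 lower of 10 tested (15 listed), with the receptor PTGER4 (7.08 against 2.35 CPM, 1.59) and the degrading enzyme HPGD (233 against 140.1 CPM, 0.73) higher and the synthase PTGES (30.2 against 70.7 CPM, -1.23) lower. Their median was -0.31, and 0.06 without YTHDF1 KO replicate 1.

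**Figure D5:**
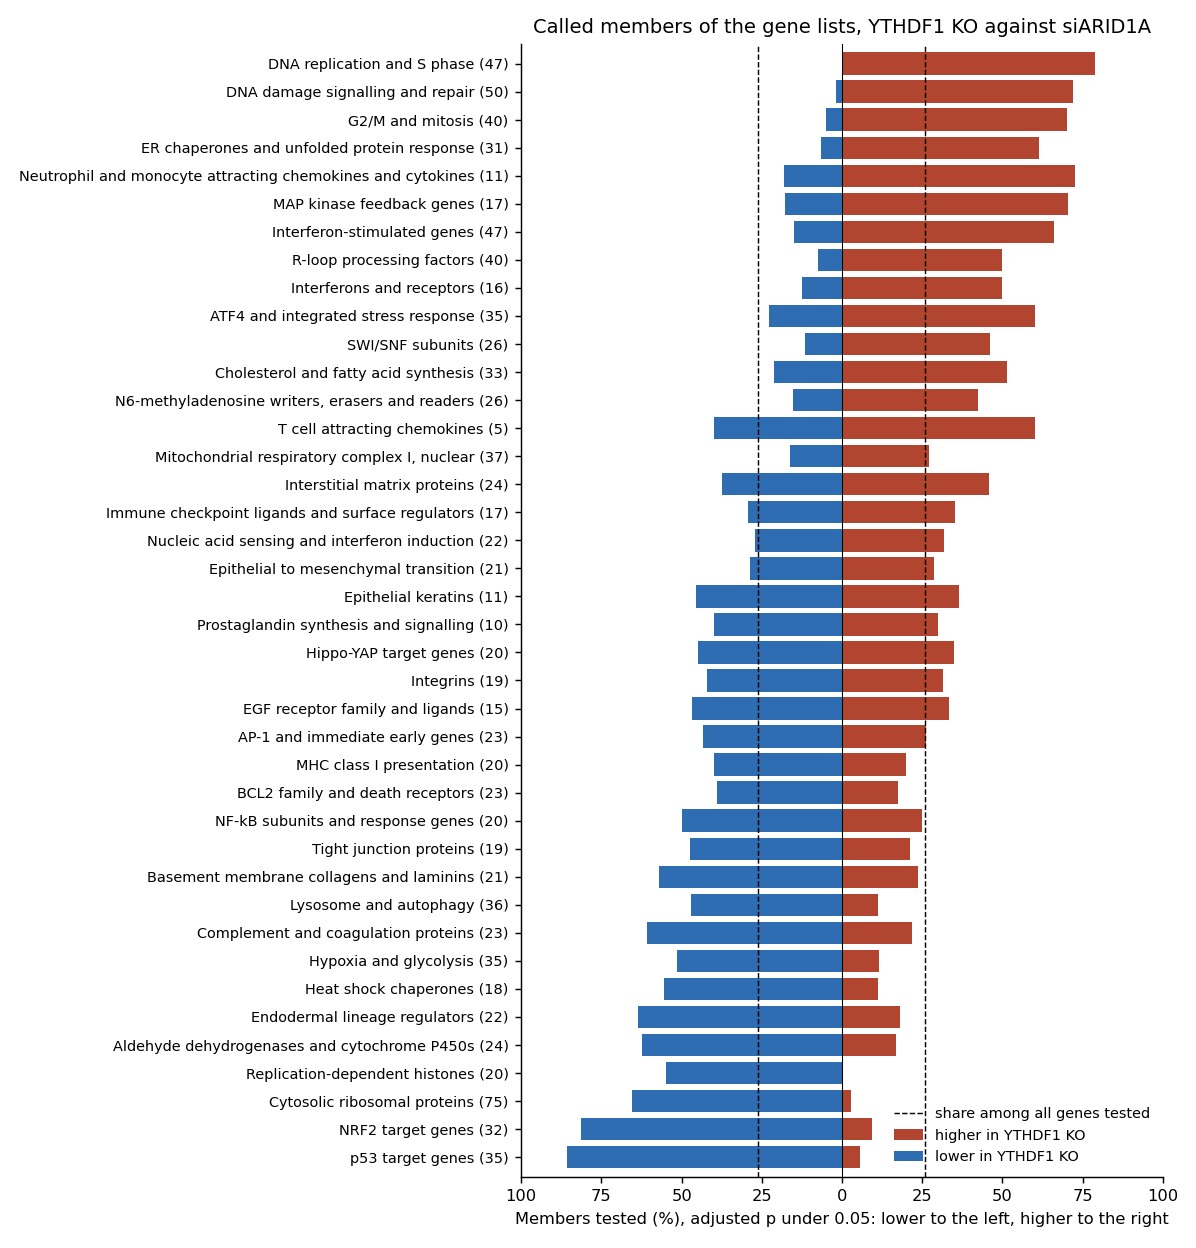
Share of the tested members of each of 40 lists that was called higher (right) or lower (left) in YTHDF1 KO, with the number tested in brackets and dashed lines at the shares among all genes tested, 25.7% and 26.3%. Replication, repair, mitosis, chaperone and interferon lists extend far to the right, and the p53, NRF2 and ribosomal lists far to the left.

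Other genes of the pathways of the targeted proteins differed by less than the targets. Of 26 SWI/SNF subunits tested (27 listed), 12 were higher in YTHDF1 KO, 3 were lower and 11 were not called, with a median of 0.17. The shares were 46.2% higher and 11.5% lower, against 25.7% and 26.3% of all genes. ARID1B, the paralog that can take the place of ARID1A, stood at 98.3, 87.2 and 99.1 CPM in the YTHDF1 KO libraries and 71.95, 65.3 and 63.96 CPM in the siARID1A libraries and was higher in YTHDF1 KO (0.50, SE 0.0792, adjusted p = 4.51e-07), with 86.5 CPM in WT. The ATPase genes SMARCA2 (33.5 against 53.8 CPM, -0.68) and SMARCA4 (25.5 against 39.4 CPM, -0.63) and the subunit DPF2 (58.8 against 84.95 CPM, -0.53) were lower, and PBRM1 of the PBAF form was higher (61.7 against 36.2 CPM, 0.77). Of 26 N6-methyladenosine genes, 11 were higher in YTHDF1 KO, 4 were lower and 11 were not called, with a median of 0.11. Here the shares were 42.3% higher and 15.4% lower. The paralog YTHDF2 was slightly higher (85.8 against 69.2 CPM, 0.31, adjusted p = 2.18e-04) and YTHDF3 was not called (114 against 110.1 CPM, 0.05, adjusted p = 0.499). The eraser ALKBH5 (157 against 113 CPM, 0.48), the writer METTL3 (73.7 against 53.1 CPM, 0.47), the writer subunit ZC3H13 (83.7 against 63.8 CPM, 0.39) and the readers IGF2BP2 (25.3 against 16.9 CPM, 0.58) and HNRNPA2B1 (1189.6 against 934 CPM, 0.35) were higher.

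The 15 largest rises and 15 largest falls also held genes outside the lists. UNC13A, a synaptic vesicle priming factor, stood at 228, 194 and 215 CPM in the YTHDF1 KO libraries and 15.02, 13.4 and 16.3 CPM in the siARID1A libraries (3.83, SE 0.105, adjusted p = 7.13e-23). The ephrin receptor EPHA5 (29.9 against 1.53 CPM, 4.29), the adhesion molecule CADM2 (29.9 against 2.75 CPM, 3.44), the membrane metalloprotease MMP16 (35.6 against 3.71 CPM, 3.26), the nuclear receptor NR2F1 (57.8 against 6.31 CPM, 3.20), the protease receptor F2RL1 (138 against 17.6 CPM, 2.97) and the collagen COL26A1 (18.2 against 2.44 CPM, 2.89) were higher. For all of these genes the siARID1A libraries were low and the groups did not overlap, as the rule that chose them required.

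On the other side, TM4SF4, a tetraspanin-like membrane protein, stood at 2.26, 2.75 and 2.703 CPM in the YTHDF1 KO libraries and 149, 134 and 175 CPM in the siARID1A libraries (-5.89, SE 0.142, adjusted p = 4.08e-20). CPS1, the first enzyme of the urea cycle, stood at 6.28, 5.16 and 6.897 CPM in the YTHDF1 KO libraries and 222, 148 and 243 CPM in the siARID1A libraries (-5.07, SE 0.251, adjusted p = 6.94e-05) and TM4SF20 at 8.66 against 175 CPM (-4.34), both on chromosome 2, with falls far beyond that chromosome's median. RTN4RL2, a Nogo receptor relative, was at 8.52 against 183 CPM (-4.42), the proprotein convertase PCSK5 at 2.17 against 47.7 CPM (-4.45), the neuropeptide receptor NPY1R at 1.52 against 29.3 CPM (-4.25) and the intestinal cadherin CDH17 at 1.93 against 33.1 CPM (-4.11). The WT means of these 7 genes lay between the groups, for example 52.5 CPM for CPS1. NTRK3, the neurotrophin receptor TrkC, differed: it stood at 1.47, 1.88 and 2.08 CPM in the YTHDF1 KO libraries and 39.2, 21.8 and 39.8 CPM in the siARID1A libraries (-4.21, SE 0.319, adjusted p = 3.57e-05), and WT held 224 ± 26.04 CPM, above both groups. SLFN11, which blocks stressed replication forks, was at 1.85 against 31.6 CPM (-4.10), with 35.6 CPM in WT, so siARID1A was at about the unmodified level. FXYD2 (1.33 against 23.1 CPM, -4.12), ANXA13 (2.12 against 29.5 CPM, -3.81) and UPK1B (2.13 against 25.6 CPM, -3.59) were the other large falls, together with F5, GPX2 and AKR1C1 given above.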

How the data were processed

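RNA of A549 cells was sequenced in 12 libraries, of which the 6 of YTHDF1 KO and siARID1A were tested. The authors deposited whole-number read counts per Ensembl gene, made with Trim Galore 0.6.6, STAR 2.7.0d and featureCounts 2.0.1 on GRCh38, per the submitters' processing notes. Those notes also name edgeR 3.32.1. The kit was a stranded one, per the labels' protocols. The annotation release, the strand setting and the treatment of read pairs are not given in the sources used here. All 60617 rows named a gene and 0 columns of counts were left unused.

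Groups were taken from the genotype labels. Genes were filtered with filterByExpr of edgeR 4.0.16 (R 4.3.3), which kept 17246 genes and left out 43371. Counts were scaled by TMM (factors 0.980 to 1.02) and tested with edgeR's robust quasi-likelihood F test and Benjamini-Hochberg adjustment at 0.05 over all genes kept. The biological coefficient of variation was 7.61%. CPM values use TMM-scaled totals of the 6 libraries, and those of WT and the combined group use a scaling of all 12. SE values come from the replicate SDs of log2 CPM with a prior count of 2. Groups with 0 counts were given a floor of 3, and counting intervals are exact at 95% and cover counting error only. WT counts as nearer to the group whose log2 of mean CPM plus 0.1 was closer. The test was also run on simulated counts in which far fewer genes were changed than were called here, so that run does not bear on the calls above.

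Members and lists were chosen with earlier results of these data known. Named genes are both targets, the 15 highest and 15 lowest fold changes among called protein-coding genes with a mean of at least 10 CPM and no overlap between groups, up to 6 called members per list with the smallest p, and YTHDF2, YTHDF3, ARID1B, CGAS, STING1, IFNB1, IFNL1, CXCL10, CCL5, ISG15, IFIT1, CD274, B2M, CDKN1A and HSPA5. Other named genes are members that went against their list, members on chromosome 2, members left out by the filter, or were picked as said beside them. Alternatives were other scalings, filters and tests (DESeq2 1.42.0, limma-voom with limma 3.58.1), a replicate block, a fit of all 12 libraries, a fit without chromosomes 2 and 9, and leaving out each library. Replicate numbers are not said to pair the groups and were not taken to do so in the main fit. Promoters are RefSeq windows of GRCh38.p14. Some genes of the lists are counted but not reported by name here.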

Additional observations from a re-analysis of the deposited data

How the results depend on the processing

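No gene called higher was called lower under any alternative run, nor the reverse. Main counts were 4425 higher and 4540 lower. They were 4213 and 4479 with DESeq2, 4440 and 4575 with limma-voom, 4359 and 4603 with RLE factors, 4913 and 4185 with library totals, 4427 and 4544 with no filter, 3476 and 3555 at 5 CPM or more in 3 libraries, 4150 and 4218 with all 12 libraries fitted, and 3862 and 3923 without chromosomes 2 and 9. Library totals moved the median of all genes from 0.0038 to 0.043. Genes past 1 on the log2 scale numbered 723 higher and 1630 lower, and 318 and 662 at 5 CPM or more in 3 libraries, where fewer genes are tested. Leaving out 1 library gave 3883 to 4405 higher, 4216 to 4443 lower, 677 to 769 higher by more than 1 and 1526 to 1739 lower by more than 1. Same-numbered libraries of the groups deviated together with r of 0.018, 0.030 and 0.014, so the numbers were not taken to pair them. With the replicate block the counts were 4482 and 4541, and every library correlated best with its own number, a hint from the data and not the design. The median of the prostaglandin list changed sign to 0.057 without YTHDF1 KO replicate 1 (from -0.31; -0.34 to 0.057 over the libraries left out), and that of the markers of other cells to -1.29 with no filter (from 0.68, over 4 genes). The cause was not tested. Of the checks of named genes, 3942 kept their call, 3 gained it (CD274) and 1 lost it (CGAS). CGAS and CD274 were scarce in both groups, and why their calls changed was not tested.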
